A study of Homo sapiens with 12 samples.

Results

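The genes described here are 10 genes of chromosome 6p22 that lie around CASC15, the locus from which the overexpressed RNA of this study comes: MBOAT1, E2F3, CDKAL1, SOX4, CASC15, DCDC2, MRS2, GPLD1, ALDH5A1 and KIAA0319, in their order along the chromosome. They were taken from a list, 10 of 18132 genes on the array, and not by their values. Each was represented by the probe set that names that gene alone and has the highest mean over the 12 arrays, with the others of its 35 probe sets as a check. Of the 10, 6 passed the filter on low values (3 or more arrays with a scaled signal no lower than 100) and were tested among 12715 genes: SOX4, CDKAL1, E2F3, MBOAT1, DCDC2 and MRS2.

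The arrays were 12 Affymetrix PrimeView arrays of total RNA from MUM2B and OCM1, both labelled human uveal melanoma cell lines. In each line, wild type cells were compared with cells overexpressing CANT1 (also CASC15-NT1), a long noncoding RNA transcribed from the CASC15 locus, at 3 arrays per group and 4 groups in all. The growth label of replicate 1 names puromycin selection and that of replicates 2 and 3 does not, so each group holds 1 array of one labelled set and 2 of another. The controls are labelled wild type, with no empty vector described, so CANT1 cannot be told apart from vector or selection in any comparison below. The labels give no clone, no number of cultures and no age or treatment beyond this, and they do not say that replicates are separate cultures, so the p-values measure only the spread between these arrays, which may be technical.

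Levels below are either scaled signals or log2 of the scaled signal plus 32. Differences are on that log2 scale, which understates the change of dim genes, and are given ± standard error with Benjamini-Hochberg adjusted p-values of limma, called at 0.05. The 3′ minus 5′ probe set difference of ACTB, a measure of RNA or label length, was 2.14 to 2.49 (log2) on the 4 replicate 1 arrays and 0.472 to 0.909 on the other 8. The replicate 1 array of OCM1 wild type stood apart: its mean correlation across genes with the arrays of its own line was 0.828, against 0.936 to 0.978 for the other 11. The lines also carried different markers. The pigment cell markers (8 of 9 on the array) summed to a signal of 648 to 861 on the MUM2B wild type arrays, where MLANA, TYRP1, S100B and EDNRB were below 100 on all, and to 14300 to 77700 on the OCM1 wild type and 76720 to 83600 on the OCM1 CANT1 arrays. The sum of 14300 was that of OCM1 wild type replicate 1. On it MITF was at 382, against 4011 and 3757 on replicates 2 and 3, and S100B at 607, against 6105 and 5975. On OCM1 CANT1 replicate 1 they were at 4515 and 9664. Keratins made the epithelial marker sum higher in MUM2B wild type (14900 to 23270) than in OCM1 wild type (1507 to 1767), while EPCAM and CDH1 were below 100 in both. The part of markers and RNA length in the results was not tested.

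By way of background, chromosome 6p is often gained in uveal melanoma, and long noncoding RNAs can act on genes near the place from which they are transcribed, which is the question that neighbouring genes address. SOX4 is a high-mobility-group transcription factor of progenitor cells and many tumours, and CASC15 is a noncoding gene beside it that has been studied in melanoma and neuroblastoma. E2F3 is a transcription factor that drives entry into S phase and is held back by RB1. The remaining genes are not known as one pathway: CDKAL1 modifies a transfer RNA, MBOAT1 moves fatty acids onto lysophospholipids, MRS2 carries magnesium into mitochondria, ALDH5A1 breaks down a product of the transmitter GABA, GPLD1 cuts glycosylphosphatidylinositol anchors, and DCDC2 (a doublecortin domain protein that binds microtubules and cilia) and KIAA0319 are known from studies of dyslexia.

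Because SOX4, DCDC2 and MRS2 were the genes whose level differed between the wild type lines, their promoters are shown, from 250 bases before to 50 bases after the RefSeq start in GRCh38.p14. Capitals mark matches, on either strand, to CCAAT (read as ATTGG on the other strand) or to GGGCGG, among 9 motifs searched. The other 7 were TATAAA (the TATA box), a first E2F motif, TTTCCCGC, a second E2F motif, TTTGGCGC, a first E-box of the kind MITF reads, CACGTG, a second such E-box, CATGTG, a first SOX motif, ACAAAG, and a second SOX motif, ACAATG. No motif overlaps another in the stretches shown. RefSeq promoters were matched for 9 of the 10 genes, MBOAT1 being the other.
SOX4, chr6:21593501-21593800, plus strand: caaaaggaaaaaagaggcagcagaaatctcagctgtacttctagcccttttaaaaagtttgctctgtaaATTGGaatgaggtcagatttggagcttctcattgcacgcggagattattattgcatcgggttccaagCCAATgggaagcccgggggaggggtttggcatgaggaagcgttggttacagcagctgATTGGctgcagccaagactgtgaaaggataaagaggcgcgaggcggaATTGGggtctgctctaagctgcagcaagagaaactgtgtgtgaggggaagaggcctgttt
DCDC2, chr6:24358010-24358309, minus strand: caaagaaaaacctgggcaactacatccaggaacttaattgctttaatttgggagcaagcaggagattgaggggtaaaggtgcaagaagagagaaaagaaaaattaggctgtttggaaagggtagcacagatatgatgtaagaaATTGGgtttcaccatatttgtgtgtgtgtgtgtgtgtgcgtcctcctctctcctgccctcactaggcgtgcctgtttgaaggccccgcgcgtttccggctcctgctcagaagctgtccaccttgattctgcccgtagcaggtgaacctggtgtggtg
MRS2, chr6:24402686-24402985, plus strand: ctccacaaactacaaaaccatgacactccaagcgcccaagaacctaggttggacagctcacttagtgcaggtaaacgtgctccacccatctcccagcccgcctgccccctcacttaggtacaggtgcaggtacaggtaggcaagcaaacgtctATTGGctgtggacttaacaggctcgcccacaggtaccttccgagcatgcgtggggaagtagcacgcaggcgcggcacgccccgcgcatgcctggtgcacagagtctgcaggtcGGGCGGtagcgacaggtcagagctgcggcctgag
The SOX4 promoter held 4 CCAAT matches and the DCDC2 and MRS2 promoters 1 each, starting at base -107 and base -97 from the start. Of 27305 promoters of the same length, 35.7% held CCAAT. The MRS2 promoter also held GGGCGG (44.6% of promoters), 17 bases after its start. The DCDC2 and SOX4 promoters were 49.0% and 49.3% G and C, below the median of 58.3% over all promoters, and the MRS2 promoter was at 60.3%. E2F3, whose promoter is not printed, held TTTCCCGC, a form of the E2F motif found in 1.66% of promoters, at base -53. It also held 4 CCAAT matches, 1 GGGCGG and 1 ACAATG, and the GPLD1 promoter held 1 CCAAT match. CCAAT is thus not particular to the promoters printed. No arrays here measure binding, so these are descriptions of the letters only.

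CASC15 itself stayed dim. Its 1 probe set had signals of 16.4, 14.3 and 16.7 in MUM2B wild type, 15.6, 13.9 and 13.5 in MUM2B with CANT1, 15.6, 12.9 and 15.2 in OCM1 wild type, and 15.7, 17.9 and 16.5 in OCM1 with CANT1, for replicates 1, 2 and 3. The OCM1 arrays with CANT1 lie just above the OCM1 wild type arrays and above the MUM2B arrays with CANT1, the other groups overlap, and every value lies far below the filter at 100. Where the probes of this set lie relative to CANT1 is not given in the sources used here, so these values do not check whether CANT1 was overexpressed.

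**Figure D1:**
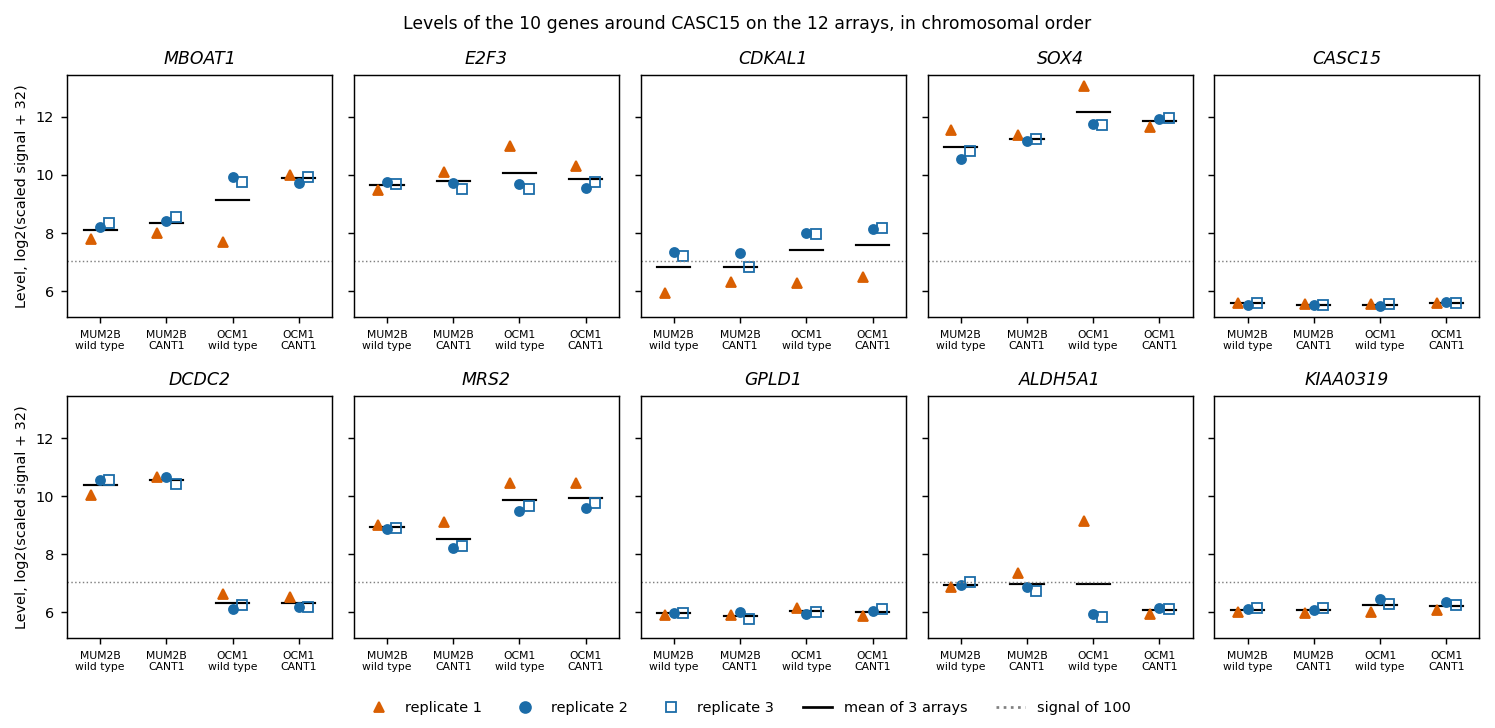
Level of each of the 10 genes, as log2 of scaled signal plus 32, on each array by group, with the mean of 3 arrays as a bar and the signal of 100 as a dotted line. DCDC2 is high on all 6 MUM2B arrays and dim on all 6 OCM1 arrays, and the OCM1 wild type replicate 1 array (triangle) lies away from replicates 2 and 3 for MBOAT1, E2F3, SOX4 and ALDH5A1.

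The widest difference among the 10 genes was between the lines, and it was DCDC2. In MUM2B wild type its signal was 1014, 1478 and 1483, and with CANT1 1577, 1575 and 1328. In OCM1 wild type it was 67.5, 36.4 and 44.2, and with CANT1 60.7, 40.5 and 41.2. No OCM1 array came near any MUM2B array. DCDC2 passed the filter through MUM2B alone, so the direction of its difference was fixed in advance and its call carries no weight. OCM1 minus MUM2B was -4.06 ± 0.19 in wild type cells (limma adjusted p = 5.19e-07) and -4.27 ± 0.19 in CANT1 cells (adjusted p = 3.54e-07). Its 2 probe sets were both lower in OCM1 in each comparison, at -4.06 and -4.58 in wild type cells and -4.27 and -4.51 in CANT1 cells. Group means were 10.39 ± 0.31 (SD, n = 3) and 10.57 ± 0.14 in MUM2B wild type and CANT1, against 6.33 ± 0.28 and 6.30 ± 0.20 in OCM1, so the order of the groups follows the line and the 2 groups of a line overlap.

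MRS2, the mitochondrial magnesium channel gene that lies beyond KAAG1 from DCDC2, went the other way. Its signals were 477, 438 and 448 in MUM2B wild type and 521, 267 and 278 with CANT1. OCM1 wild type gave 1353, 680 and 777, and OCM1 with CANT1 gave 1360, 735 and 833. On this brightest probe set every OCM1 array was above every MUM2B array, and both OCM1 groups were high on replicate 1. Other probe sets did not all show this. On the dimmest, OCM1 CANT1 replicate 3 was at 200, below MUM2B CANT1 replicate 1 at 241. On another, replicate 1 was the lowest array of OCM1 wild type (518, 640 and 753) and of OCM1 CANT1 (586, 623 and 636). The difference was 0.93 ± 0.17 in wild type cells (limma adjusted p = 0.00258) and 1.39 ± 0.17 in CANT1 cells (adjusted p = 0.000209). With no term for the labelled set the wild type call was lost (0.93 ± 0.32, adjusted p = 0.056). All 7 of its probe sets had positive differences in each comparison and 6 passed, the other being at 0.64 in wild type cells and 0.36 in CANT1 cells (adjusted p = 0.0694 and 0.283).

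SOX4 showed a smaller line difference. Its signals were 2985, 1465 and 1779 in MUM2B wild type and 2606, 2266 and 2378 with CANT1. OCM1 wild type gave 8630, 3416 and 3331, and OCM1 with CANT1 gave 3219, 3898 and 3951. On this brightest probe set, all 6 OCM1 arrays were above all 6 MUM2B arrays, and the highest was OCM1 wild type replicate 1. Most of the dimmer probe sets did not separate the lines fully. On one of them MUM2B CANT1 replicate 3 was at 1418 and OCM1 CANT1 replicate 1 at 1376. OCM1 minus MUM2B was 1.21 ± 0.29 in wild type cells (limma adjusted p = 0.0109) and 0.60 ± 0.29 in CANT1 cells, which did not pass (adjusted p = 0.136, 95% interval -0.050 to 1.25). Without OCM1 wild type replicate 1 the differences were 0.84 and 0.60 and both passed (adjusted p = 0.0169 and 0.0363). That array is outside the CANT1 comparison, whose difference was unchanged, but it enters the shared estimate of spread. The standard error there went from 0.29 to 0.21. The CANT1 comparison also passed without OCM1 CANT1 replicate 1, at 0.96 (adjusted p = 0.0186). All 7 SOX4 probe sets were higher in OCM1 wild type cells, by 0.62 to 1.44, with OCM1 wild type replicate 1 the highest array for each. In CANT1 cells all 7 were above 0, at 0.45 to 0.78, but only 1 passed.

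MBOAT1, CDKAL1 and E2F3, the genes on the far side of SOX4 from CASC15, were less even. The MBOAT1 signal was 188, 267 and 292 in MUM2B wild type and 225, 311 and 347 with CANT1. In OCM1 wild type it was 174, 951 and 825, and with CANT1 it was 992, 810 and 950. On this brightest probe set, every OCM1 array except OCM1 wild type replicate 1 was above every MUM2B array. The wild type difference was 1.01 ± 0.39 and did not pass (limma adjusted p = 0.0735), and without that array it was 1.64 and passed (adjusted p = 7.56e-05). It also passed, at an unchanged 1.01, without OCM1 CANT1 replicate 1 (adjusted p = 0.043), an array outside this comparison that enters the shared estimate of spread. In CANT1 cells MBOAT1 was higher in OCM1 by 1.55 ± 0.39 (adjusted p = 0.011). Of its 5 probe sets 2 could be tested, and the second was at 0.63 and did not pass (adjusted p = 0.0645). That second probe set passed the filter through OCM1 alone. Its signal on OCM1 CANT1 replicate 1 was 47.8, against 101 and 104 on replicates 2 and 3, a dip that the brightest probe set did not show. Dimmer probe sets, below the filter, also dipped there. One was at 18.6, against 72.9 and 73.3, and another at 26.7, against 58.4 and 59.1. The high value of OCM1 CANT1 replicate 1 thus rests on the brightest probe set.

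CDKAL1 was dim on replicate 1 in all 4 groups. Its signals were 29.3, 130 and 116 in MUM2B wild type and 47.2, 127 and 82.1 with CANT1, and 45.4, 226 and 217 in OCM1 wild type and 57.1, 249 and 259 with CANT1. Within replicates 2 and 3 the OCM1 arrays were the higher ones. The line difference was 0.59 ± 0.21 in wild type cells, not passing (limma adjusted p = 0.0556), and 0.78 ± 0.21 in CANT1 cells (adjusted p = 0.015). The wild type difference passed without OCM1 wild type replicate 1, at 0.74 (adjusted p = 0.0217), and, unchanged in size, without MUM2B CANT1 replicate 1 or 3 (adjusted p = 0.0178 and 0.0227). It also passed with unscaled values (0.75, adjusted p = 0.0482), an offset of 16 (0.66, 0.0487), the mean over probe sets (0.38, 0.0258) and a fit of only the arrays compared (0.59, 0.0326). The CANT1 call was lost without OCM1 CANT1 replicate 2 (0.74, adjusted p = 0.0548) or 3 (0.71, adjusted p = 0.0586), and with no term for the labelled set (adjusted p = 0.388).

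E2F3 did not pass in either line comparison. Its signals were 681, 843 and 790 in MUM2B wild type, 1064, 814 and 705 in MUM2B with CANT1, 1997, 792 and 697 in OCM1 wild type, and 1226, 718 and 825 in OCM1 with CANT1. The groups overlap on replicates 2 and 3, and replicate 1 of OCM1 wild type is the high one. OCM1 minus MUM2B was 0.42 ± 0.27 in wild type cells (limma adjusted p = 0.288, 95% interval -0.20 to 1.03), or 0.051 without OCM1 wild type replicate 1, and 0.08 ± 0.27 in CANT1 cells (adjusted p = 0.844, interval -0.53 to 0.69). None of its 3 probe sets passed in either comparison.

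Counted over the tested genes of the locus, 2 were higher in OCM1 and 1 lower in wild type cells, where 33.0% of all 12715 genes passed (19.1% higher, 13.9% lower). In CANT1 cells 3 were higher and 1 lower, where 37.2% passed (21.2% higher, 16.1% lower). The lower gene in each was DCDC2, which passed the filter through MUM2B alone. Each count in this paragraph thus includes 1 call whose direction was fixed in advance and which carries no weight. Without OCM1 wild type replicate 1, the genes called were CDKAL1, DCDC2, MBOAT1, MRS2 and SOX4 in both comparisons, beside 44.0% and 48.5% of all genes. On replicates 2 and 3 only, an alternative chosen after the data were seen, the same 5 passed in both, beside 62.4% and 64.5%. The median difference of the 6 genes was 0.76 in wild type and 0.69 in CANT1 cells, against 0.056 and 0.086 over all genes.

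**Figure D2:**
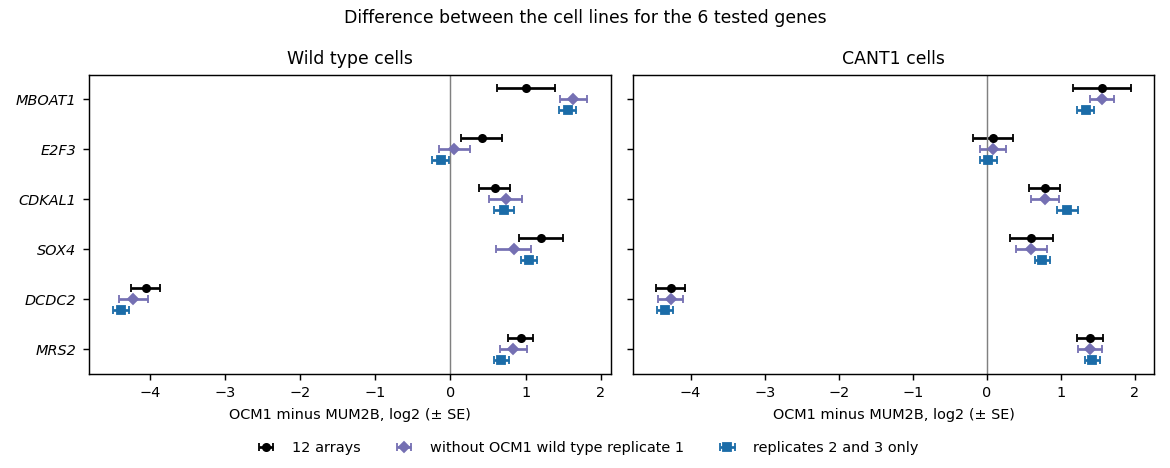
OCM1 minus MUM2B (log2, points with ± SE bars) for the 6 tested genes in wild type cells (left) and CANT1 cells (right), from all 12 arrays, without OCM1 wild type replicate 1 and from replicates 2 and 3 only. DCDC2 lies near -4 in every fit, and MBOAT1 in wild type cells moves from 1.01 to 1.64 without that array.

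The last 3 genes stayed below the filter and are given as values. GPLD1 had signals of 22.5 to 39.3 and KIAA0319 of 30.5 to 56.2 over the 12 arrays, with the groups overlapping. ALDH5A1, the succinate semialdehyde dehydrogenase gene, had 83.7, 90.7 and 99.5 in MUM2B wild type and 130, 84.1 and 73.5 with CANT1. In OCM1 it had 536, 29.2 and 25.3 in wild type and 29.4, 39.5 and 37.6 with CANT1. The 6 MUM2B arrays were above 5 of the 6 OCM1 arrays, and OCM1 wild type replicate 1 was far above all others. Its second probe set was also highest on that array, at a signal of 109. In a fit of all 18132 genes, without the filter, the line difference of ALDH5A1 was 0.03 ± 0.64 in wild type cells and -0.90 ± 0.64 in CANT1 cells (limma adjusted p = 0.984 and 0.362).

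With all 12 arrays, no gene of the locus passed for CANT1. In MUM2B 0 of the 6 genes were called, as were 0% of all genes (0 of 12715, with 220 at unadjusted p under 0.05), and at that unadjusted level 1 gene was MRS2, at -0.39 (95% interval -0.77 to -0.0086). In OCM1 0 of 6 were called and 0 had an unadjusted p under 0.05, beside 0.118% of all genes called. The widest OCM1 interval was that of MBOAT1, 0.76 with -0.11 to 1.63, so its upper bound lies past 1 log2 unit. Without OCM1 wild type replicate 1 that MBOAT1 difference was 0.13 (adjusted p = 0.876). For the difference of the CANT1 effects between the lines, 0 of 6 passed and 0 were at unadjusted p under 0.05, beside 0.0472% of all genes.

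The labelled sets differed within these comparisons. In MUM2B, on replicates 2 and 3, SOX4 rose with CANT1 by 0.52 ± 0.11 (limma adjusted p = 0.0057) and MRS2 fell by 0.64 ± 0.10 (adjusted p = 0.0017), 2 of 6 genes, where 23.9% of all genes passed (13.8% higher, 10.1% lower). On replicate 1 the same difference was -0.19 for SOX4 and 0.12 for MRS2. The SOX4 signals of the 2 CANT1 arrays, 2266 and 2378, lay above the 1465 and 1779 of the 2 wild type arrays, and the MRS2 signals of 267 and 278 lay below 438 and 448. SOX4 lost its call without MUM2B wild type replicate 2 and without MUM2B CANT1 replicate 3 (adjusted p up to 0.0636), while its difference stayed between 0.38 and 0.65. Between the sets, the CANT1 difference itself differed for 4 of the 6 genes in MUM2B, beside 35.8% of all genes, and for 3 of 6 in OCM1, beside 48.2%. CDKAL1 was called as lower when MUM2B CANT1 replicate 2 was left out, at -0.44 (adjusted p = 0.0187).

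In OCM1, 0 of 6 genes passed on replicates 2 and 3 and 0 had an unadjusted p under 0.05 there, where 22.6% of all genes passed (13.4% higher, 9.15% lower). SOX4 was at 0.22 (95% interval -0.016 to 0.45) and MRS2 at 0.10 (-0.12 to 0.33). On these arrays alone the CANT1 difference of MRS2 was higher in OCM1 than in MUM2B by 0.74 ± 0.15 (limma adjusted p = 0.00492), as 21.3% of all genes also differed, and that of SOX4 was -0.30 ± 0.15 (adjusted p = 0.184). With all 12 arrays neither passed.

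**Figure D3:**
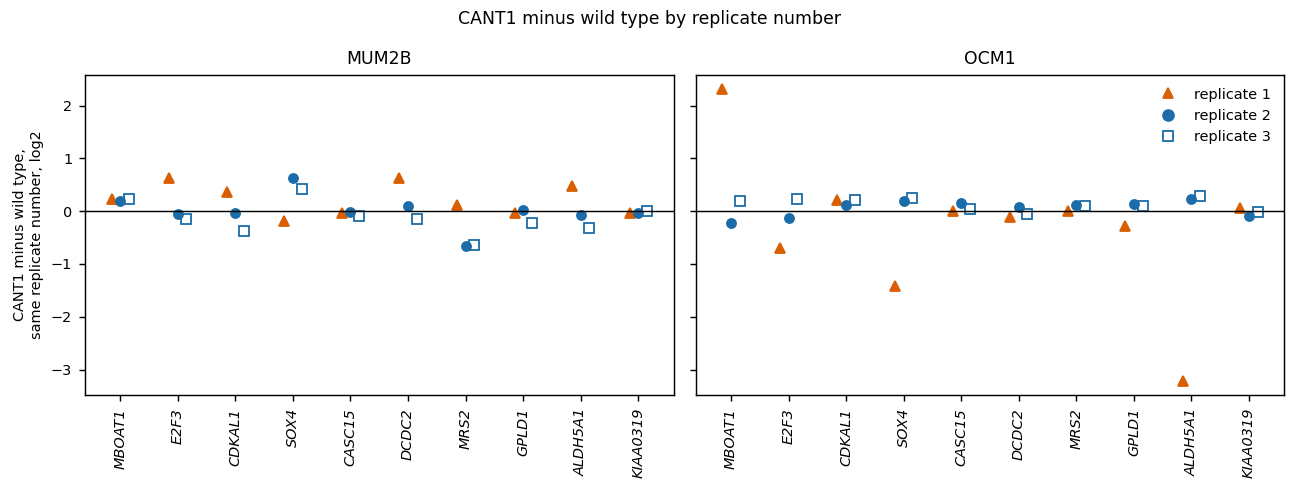
CANT1 minus wild type (log2) between arrays of the same replicate number, for the 10 genes in MUM2B (left) and OCM1 (right). Replicate 1 (triangles) lies apart from replicates 2 and 3 for MBOAT1, E2F3, SOX4 and ALDH5A1 in OCM1. For SOX4, MRS2, E2F3, CDKAL1 and ALDH5A1 in MUM2B it lies on the other side of 0 from them.

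The probe sets of SOX4 and MRS2 gave the same picture on replicates 2 and 3 of MUM2B for most, not all. Of 7 SOX4 probe sets 5 passed as higher with CANT1, over a range for all 7 of -0.05 to 0.56 in which 1 was below 0. Of 7 MRS2 probe sets, all below 0, 6 passed, over -0.64 to -0.25. In OCM1, 1 MRS2 probe set, at -0.73, fell while the other MRS2 probe sets did not pass. Probe sets of a gene share the arrays and some share transcript sequence, so they are not independent.

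**Figure D4:**
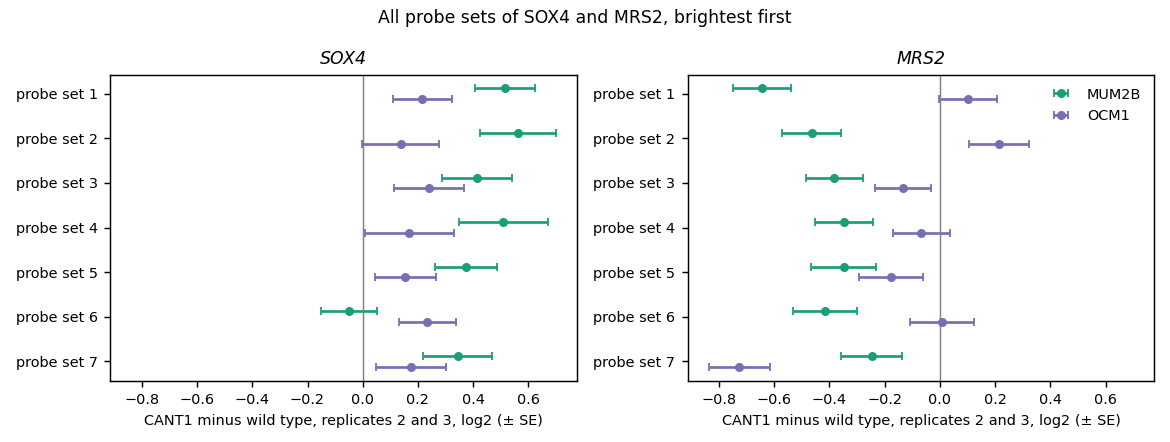
CANT1 minus wild type on replicates 2 and 3 (log2, ± SE) for the 7 probe sets of SOX4 (left) and the 7 of MRS2 (right), in MUM2B and OCM1, ordered from brightest to dimmest. In MUM2B 6 of 7 MRS2 probe sets lie below 0 past the threshold, and the brightest is at -0.64.

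Other genes of 6p22 also differed between the lines. Of 30 listed neighbours 22 were tested, and in wild type cells 9 were higher in OCM1 and 4 lower, against 33.0% of all genes called. ID4, an inhibitor of basic helix-loop-helix factors that lies next to MBOAT1 among the tested genes, was at 5.30 ± 0.37. It lay below 100 on all 6 MUM2B arrays and passed the filter through OCM1 alone, so its direction was fixed in advance and its call carries no weight. RBM24, an RNA-binding protein gene, was at -2.20, with 5 of the 6 OCM1 arrays below 100, and KDM1B, a histone demethylase gene, at 1.72. Higher and lower genes were mixed along the chromosome, and the median of the 22 was 0.32. In CANT1 cells 10 were higher and 3 lower (median 0.35), where 37.2% of all genes passed (21.2% higher, 16.1% lower). GMPR, at -2.20 there, lay below 100 on all 6 OCM1 arrays and passed the filter through MUM2B alone. With all 12 arrays 0 of the 22 passed for CANT1 in either line, where 0% of all genes passed in MUM2B and 0.118% in OCM1. In each line 1 had an unadjusted p under 0.05. On replicates 2 and 3 of MUM2B, 4 rose and 4 fell, among them ID4 (below 100 there) at 0.99 and C6orf62 at -0.49, where 23.9% of all genes passed. In OCM1 3 rose and 0 fell, with ID4 at 0.32, where 22.6% passed. Between the labelled sets, the CANT1 difference differed for 12 of the 22 in MUM2B (6 upwards, 6 downwards) and 11 in OCM1 (6 and 5), beside 35.8% and 48.2% of all genes.

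**Figure D5:**
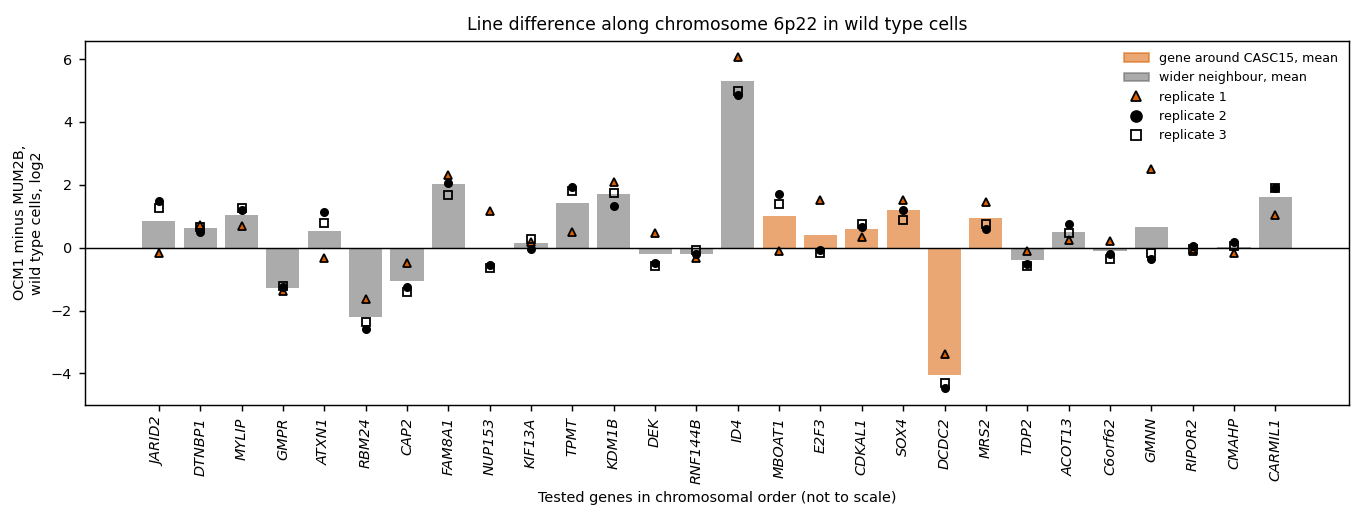
OCM1 minus MUM2B in wild type cells (log2) for the 6 tested genes of the locus (orange) and 22 listed neighbours (grey) in chromosomal order, not to scale; bars are means and symbols are the differences between arrays of the same replicate number. ID4 at 5.30 and DCDC2 at -4.06 lie farthest from 0 in each direction, and each passed the filter on low values through 1 line alone.

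Relatives of the locus genes were counted from lists chosen by family. Of the E2F and RB families, 12 of 12 genes were tested. In wild type cells 2 were higher in OCM1 and 2 lower, where 33.0% of all genes passed, among them E2F7, an E2F repressor, at -1.99 ± 0.24 (limma adjusted p = 0.00024). On replicates 2 and 3 of MUM2B with CANT1, 1 rose and 6 fell (median -0.30, against 0.0029 over all genes), where 23.9% of all genes passed. E2F8, another repressor, was at -0.78, E2F2 at -0.60 and RB1, the inhibitor of the activating E2Fs, at -0.59, while TFDP2, an E2F partner, was at 0.58. E2F3 was at -0.10 there and did not pass. Replicate 1 lay the other way for E2F8, with levels of 6.49 in wild type and 8.52 with CANT1, and for RB1, with 9.70 and 10.12. Between the labelled sets the CANT1 difference differed in MUM2B for all 12 genes, 4 upwards and 8 downwards (E2F8 at -2.81, RB1 at -1.02), beside 35.8% of all genes. On replicates 2 and 3 of OCM1, 1 rose and 2 fell, where 22.6% of all genes passed. With all arrays 0 of 12 passed for CANT1 in either line, where 0% of all genes passed in MUM2B and 0.118% in OCM1. At unadjusted p under 0.05 there were 0 in MUM2B and 1 in OCM1.

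Of the SOX family, 10 of 13 genes were tested besides SOX4, and in wild type cells 2 were higher in OCM1 and 3 lower, where 33.0% of all genes passed (19.1% higher, 13.9% lower). SOX6 was at 3.70 ± 0.31, and SOX9, SOX7 and SOX17 were at -4.20, -4.16 and -2.51. SOX5 and SOX6 lay below 100 on all 6 MUM2B arrays, SOX7 and SOX17 on all 6 OCM1 arrays and SOX9 on 5 of them. These genes passed the filter through 1 line, so calls of them between the lines carry no weight. The count of the family beside 33.0% is limited by this. With all arrays 0 of the 10 passed for CANT1 in either line, where 0% of all genes passed in MUM2B and 0.118% in OCM1. At unadjusted p under 0.05 there were 0 in MUM2B and 1 in OCM1. In MUM2B on replicates 2 and 3, SOX17 rose by 0.97 and SOX6 by 0.82 with CANT1 (2 of 10, where 23.9% of all genes passed), and SOX6 rose by 0.70 in OCM1 (1 of 10, where 22.6% passed). On replicate 1 of MUM2B the levels went the other way, from 8.90 in wild type to 8.38 with CANT1 for SOX17 and from 6.80 to 6.62 for SOX6, and the difference between the labelled sets was 1.49 and 1.01 (limma adjusted p = 0.000186 and 0.00281). Among relatives of the enzymes and carriers, 14 of 17 were tested, and 4 were higher and 2 lower in OCM1 wild type cells, again beside 33.0% of all genes, with MBOAT7, a lysophosphatidylinositol acyltransferase gene, at -1.28 and PIGA, which starts the anchor that GPLD1 cuts, at 1.30. For CANT1, 0 of the 14 passed in either line with all arrays, again beside 0% of all genes in MUM2B and 0.118% in OCM1. At unadjusted p under 0.05 there were 1 in MUM2B and 2 in OCM1. The smallest p of these in OCM1 was that of DCLK1, at -0.98 ± 0.17 (limma adjusted p = 0.0834). On replicates 2 and 3 of MUM2B, 2 rose and 0 fell, where 23.9% of all genes passed. In OCM1 3 rose and 2 fell, where 22.6% passed, with DCLK1 at -1.08 and its signal as low as 43.3.

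The genes whose levels over the 12 arrays came closest to those of the widest-ranging genes were named by root mean square difference, after each gene was centred within each labelled set. For DCDC2 they were PLEK2 (0.204), PDE2A (0.207) and LGALS8 (0.209), where the median over all genes was 2.14. For MBOAT1 they were CIAO1 (0.143), MICAL1 (0.182) and ATP6V1B2 (0.182), with a median of 0.829, and for MRS2 CASP2 (0.128), FAM162A (0.149) and ALKBH4 (0.166), with a median of 0.633. All of these share the arrays and follow mainly the difference between the lines.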

How the data were processed

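The 12 arrays of MUM2B and OCM1 cells (4 groups of 3) came as 1 deposited value for each probe set. The authors' deposited values were read as log2 intensities from their range; the submitters' processing notes name MAS5, and the base, version and normalization are not given in the sources used here. The values were raised from log2, multiplied on each array so that the mean, 2% trimmed at each end, was 500, and returned to log2 with 32 added. Of 49395 probe sets 102 controls were left out and 44988 named 1 gene by the platform annotation, 1832 several and 2473 none; 44961 matched the gene table by identifier. The number of arrays limits the precision.

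limma 3.58.1 (R 4.3.3, lmFit and eBayes) was fitted to all 12715 genes with 4 group terms and a labelled set term (7 residual degrees of freedom). For replicates 2 and 3, and for the set difference (CANT1 effect on replicates 2 and 3 minus that on replicate 1), 8 group-by-set means were fitted (4 degrees of freedom), single replicate 1 arrays being assumed to vary like the others. Each script's fit was tested on simulated data. Promoter letters are from RefSeq (GRCh38.p14). The members, lists and tests were chosen with earlier results of these data known. Named were all members, up to 4 genes of each list by smallest p and the 3 genes closest in pattern. Alternatives were quantile normalization, unscaled values, offsets of 16 and 64, no filter or a signal of 200, the mean over probe sets, no set term, a replicate block, only the arrays compared and each array left out. Results on replicates 2 and 3 only were added after seeing the data.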

Additional observations from a re-analysis of the deposited data

Results flagged for a closer look

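Each of these results was noted because the CANT1 minus wild type difference on replicates 2 and 3 differed from that on replicate 1 of the same line, by limma's test of the difference. Such differences were common, at 35.8% of all genes in MUM2B and 48.2% in OCM1, and replicate 1 is a single array per group. The median over all genes was 0.088 in MUM2B and 0.10 in OCM1.

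In MUM2B 4 of the 6 tested genes differed. SOX4 differed by 0.71 (limma adjusted p = 0.0108), from -0.19 on replicate 1 to 0.52 on the others. E2F3 differed by -0.72 (adjusted p = 0.0135), DCDC2 by -0.65 (adjusted p = 0.0165) and MRS2 by -0.76 (adjusted p = 0.00629). In OCM1 3 of the 6 differed. SOX4 differed by 1.63 (adjusted p = 2.05e-05), E2F3 by 0.74 (adjusted p = 0.00811) and MBOAT1 by -2.32 (adjusted p = 2.29e-06). All 3 involve the OCM1 wild type replicate 1 array, which stood apart from its line. The set is confounded with replicate 1's growth label and its larger ACTB 3′ minus 5′ difference, so these cannot be told apart. By probe set, all 7 of SOX4 and all 3 of E2F3 differed upwards in OCM1. The 2 tested MBOAT1 probe sets differed downwards there, the second by only -0.60. In MUM2B 5 of 7 SOX4 probe sets differed upwards. Downwards there were 2 of 3 E2F3 probe sets, 2 of 2 of DCDC2 and 4 of 7 of MRS2. Groups of 3 arrays were not tested for outliers.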

How the results depend on the processing

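Of 1158 alternative values of single genes, 1089 kept their direction and their side of the threshold, 6 lost a call, 20 gained one and 43 turned in sign, 0 of them among called genes. The cause of the changes below was not tested.

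On replicates 2 and 3 only, 1 gene (MRS2) was called for the difference of the CANT1 effects and 5 in the wild type line comparison, and E2F3 there turned to -0.13. For the difference of effects E2F3 turned to 0.15, MBOAT1 to -0.22 and DCDC2 to 0.046. With the mean over probe sets CDKAL1 turned to 0.0026 in MUM2B, DCDC2 to 0.016 and MRS2 to -0.064 in OCM1, MRS2 to -0.11 on replicates 2 and 3 of OCM1, and the set difference of MBOAT1 in MUM2B to 0.0089 and of MRS2 in OCM1 to -0.14. Unscaled values turned CDKAL1 in MUM2B to 0.066, E2F3 and DCDC2 on replicates 2 and 3 of OCM1 to -0.0049 and -0.028, and the set difference of MRS2 in OCM1 to -0.014. An offset of 16 turned CDKAL1 in MUM2B to 0.0049, an offset of 64 its set difference in OCM1 to 0.0071, and quantile normalization DCDC2 on replicates 2 and 3 of OCM1 to -0.025.

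With 1 array left out at a time, the count called was 3 to 5 in the wild type line comparison, with 5 without OCM1 wild type replicate 1, and 1 to 3 on replicates 2 and 3 of MUM2B. For CANT1 in MUM2B, the values ran CDKAL1 from -0.28 to 0.22, DCDC2 from -0.096 to 0.30 and E2F3 from -0.22 to 0.31. For CANT1 on replicates 2 and 3 of MUM2B, the values ran CDKAL1 from -0.44 to 0.034 and DCDC2 from -0.15 to 0.087. For the difference of the CANT1 effects, the values ran CDKAL1 from -0.041 to 0.47, DCDC2 from -0.32 to 0.070, E2F3 from -0.53 to 0.029 and MBOAT1 from -0.081 to 0.85. For CANT1 in OCM1, the values ran DCDC2 from -0.14 to 0.14, E2F3 from -0.39 to 0.17, MRS2 from -0.017 to 0.17 and SOX4 from -0.48 to 0.038. For CANT1 on replicates 2 and 3 of OCM1, the values ran DCDC2 from -0.066 to 0.092, E2F3 from -0.049 to 0.14 and MBOAT1 from -0.12 to 0.098. For the set difference in MUM2B, the values ran MBOAT1 from -0.088 to 0.055.

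The replicate block left 0 calls for CANT1 in either line and for the difference of effects, and 3 and 4 in the line comparisons, the counts without it, and it changed no call of a gene of the locus. Over all genes, the calls for CANT1 in OCM1 went from 15 to 7 with the replicate block, 6 with no set term, 0 on only the arrays compared and 139 without OCM1 wild type replicate 1, and those for the difference of effects from 6 to 3 with the block or with no set term. Over replicates 2 and 3 alone, same-numbered arrays correlated at -0.13 to 0.22 in their deviations from the group means, so those numbers were not taken to pair the samples. Replicate 1 was not part of that check, its labelled set being a term of the fit. No term for the labelled set gave 2 and 3 calls in the line comparisons, MRS2 losing its call in wild type cells (limma adjusted p = 0.056), and only the arrays compared gave 4 and 5. The dimness of CASC15, GPLD1, KIAA0319, ALDH5A1 on most arrays and DCDC2 in OCM1 limits what their differences can show.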
